A study of Mus musculus with 192 samples.

Results

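The 5 genes described here, Ncf1, Ncf4, Cyba, Cybb and Rac2, encode parts of the phagocyte NADPH oxidase. They were found by symbol among the 20764 genes of the count table, and each of the 5 had a row. The table came from 192 single cells of C57BL/6 mouse bone marrow, from animals given as 8 to 16 weeks old, sorted as LSK cells (negative for lineage markers, positive for Sca-1 and cKit) after enrichment on beads against CD117, which is cKit. For every cell the labels also gave the antibody signals recorded at the sort. The cells lay in 2 library pools of 96, no animal was named, and so all cells stand for 1 biological sample. Cells were ranked by a signal within each pool, and the 32 lowest, 32 middle and 32 highest cells of both pools made up a lower, a middle and an upper class. The upper class of each signal was set against its lower class. For CD135 the median signals of the lower, middle and upper classes were 209, 478 and 1662 units in pool 1 and 192, 685 and 1693 in pool 2. The groups share strain, tissue and sort, and no treatment or genotype separates them.

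The phagocyte NADPH oxidase passes electrons from NADPH across a membrane to oxygen, which makes superoxide. Cybb, the catalytic subunit, and Cyba, its stabilising partner, form the membrane core. Ncf1 is the organiser that bridges the core and the soluble subunits, and Ncf4 is a soluble subunit that binds a membrane lipid. The soluble subunits stay in the cytosol of a resting cell and join the core together with an active Rac GTPase, of which Rac2 is the form restricted to blood cells. The enzyme is best known from neutrophils and macrophages, and loss of Cybb, Cyba, Ncf1 or Ncf4 causes chronic granulomatous disease in humans.

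The 191 cells kept held 3704842 gene UMIs (unique molecular identifiers, each standing for 1 captured mRNA molecule), with a median of 17715 per cell (3927 to 49372) and 4910 detected genes. The cell left out had 708 gene UMIs and none of a member. Kit had a UMI in 98.4% of the 191 cells, Ptprc in 96.3%, Cd34 in 95.3% and Ly6a, the gene of Sca-1, in 37.7%. S100a8, a marker of mature neutrophils, had 0 UMIs, and S100a9 had 5. Levels are given as CPM, the UMIs of a gene summed over the cells of a class per 1000000 gene UMIs of that class. All intervals are 95% intervals and cover counting error alone. Cells of 1 sample are not replicates, so no p-value is given.

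Over all kept cells the members differed widely in how often they were seen. Ncf1 (ENSMUSG00000015950, chromosome 5, 134220053 to 134229625, minus strand of GRCm38) had 266 UMIs in 90 cells, or 71.8 CPM (63.4 to 80.97). Cyba (ENSMUSG00000006519, chromosome 8, 122424776 to 122432930, minus strand) had 199 UMIs in 110 cells, or 53.7 CPM (46.5 to 61.7). Rac2 (ENSMUSG00000033220, chromosome 15, 78559167 to 78572783, minus strand) had 999 UMIs in 95.3% of cells, or 269.6 CPM (253 to 287). Rac2 was therefore seen in nearly every cell and Cyba in over 1 cell of every 2.

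Ncf4 (ENSMUSG00000071715, chromosome 15, 78244801 to 78262580, plus strand) had 47 UMIs in 40 cells, or 12.7 CPM (9.32 to 16.9). Cybb (ENSMUSG00000015340, chromosome X, 9435252 to 9487771, minus strand) had 3 UMIs in 2 cells, or 0.81 CPM (0.17 to 2.37). The catalytic subunit was thus at the limit of what this depth can show. Outside the set, Rac1, the widely expressed Rac GTPase, had 625 UMIs in 92.1% of cells. Cybc1, a chaperone of the membrane core, had 140 UMIs in 86 cells. Capture at the poly(A) tail can differ between genes, so levels were compared between classes and not between genes.

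The annotation places each member on 1 strand with its own neighbours. Ncf1 overlaps Gtf2ird2 on the opposite strand, and Cyba overlaps the predicted gene Gm20388 on the opposite strand, which was not analysed here. Whether the counting used strand is not given in the sources used here. Gtf2ird2 had 24, 22 and 24 UMIs in the lower, middle and upper CD135 classes, or 18.8, 17.9 and 19.98 CPM. The neighbour of Ncf1 therefore showed no step of the size that Ncf1 showed over the same classes.

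RefSeq start regions were available for Ncf1, Cyba and Cybb, and for neither Ncf4 nor Rac2. They are shown beside the patterns of these genes: Ncf1 followed CD135, Cyba was level, and Cybb was almost not seen. Each runs 5′ to 3′ on the minus strand of GRCm38.p6, from 250 bases before the RefSeq start to 20 bases after it. Capitals mark GAGGAA or its reverse complement TTCCTC, the core of sites of the myeloid factor PU.1 (Spi1), searched on both strands.
Ncf1, chr5:134229606-134229875: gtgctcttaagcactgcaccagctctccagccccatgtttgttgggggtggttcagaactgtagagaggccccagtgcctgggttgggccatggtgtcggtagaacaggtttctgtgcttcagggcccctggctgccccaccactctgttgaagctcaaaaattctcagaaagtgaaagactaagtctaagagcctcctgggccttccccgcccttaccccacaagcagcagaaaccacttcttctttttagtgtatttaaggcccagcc
Cyba, chr8:122432921-122433190: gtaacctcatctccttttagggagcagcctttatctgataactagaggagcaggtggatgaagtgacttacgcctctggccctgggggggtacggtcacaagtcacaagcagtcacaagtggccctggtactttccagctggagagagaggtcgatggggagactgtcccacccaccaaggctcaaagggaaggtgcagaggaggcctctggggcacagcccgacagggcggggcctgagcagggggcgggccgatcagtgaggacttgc
Cybb, chrX:9469305-9469574: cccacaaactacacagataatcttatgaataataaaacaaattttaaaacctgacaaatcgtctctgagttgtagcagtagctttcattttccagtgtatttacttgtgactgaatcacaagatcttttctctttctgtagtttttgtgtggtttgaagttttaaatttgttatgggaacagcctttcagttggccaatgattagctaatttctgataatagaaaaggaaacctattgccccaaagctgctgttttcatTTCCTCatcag
The letters occurred once in the Cybb window, beginning at base 10 after the start, and in neither the Ncf1 nor the Cyba window. They occurred in 25.1% of all 32851 RefSeq windows of 270 bases, so a match or its absence is a description of these windows only.

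Is Ncf1 the one member graded with CD135 (the receptor FLT3, which marks multipotent and lymphoid-primed progenitors)? Ncf1 stood at 19.6 CPM (12.7 to 28.9) in the lower class, 44.9 (33.8 to 58.4) in the middle class and 154.8 (133.4 to 178.8) in the upper class. These levels came from 25 UMIs in 63 cells, 55 UMIs in 64 cells and 186 UMIs in 64 cells. The class intervals did not overlap, and the level climbed with each class. Pool 1 gave 16.0, 45.2 and 135.6 CPM from lower to upper, and pool 2 gave 23.8, 44.5 and 175.8 CPM. Ncf1 was 7.91-fold higher in the upper than in the lower class, a log2 ratio of 2.98 (2.38 to 3.65).

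The step held in both pools, with log2 ratios of 3.09 in pool 1 and 2.89 in pool 2. Leaving out any 1 cell gave from 2.85 to 3.15. Among the 7232 genes with at least 50 UMIs over both classes, Ncf1 had the 17th highest ratio. This difference was known from earlier work on the same counts and is not independent evidence.

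**Figure D1:**
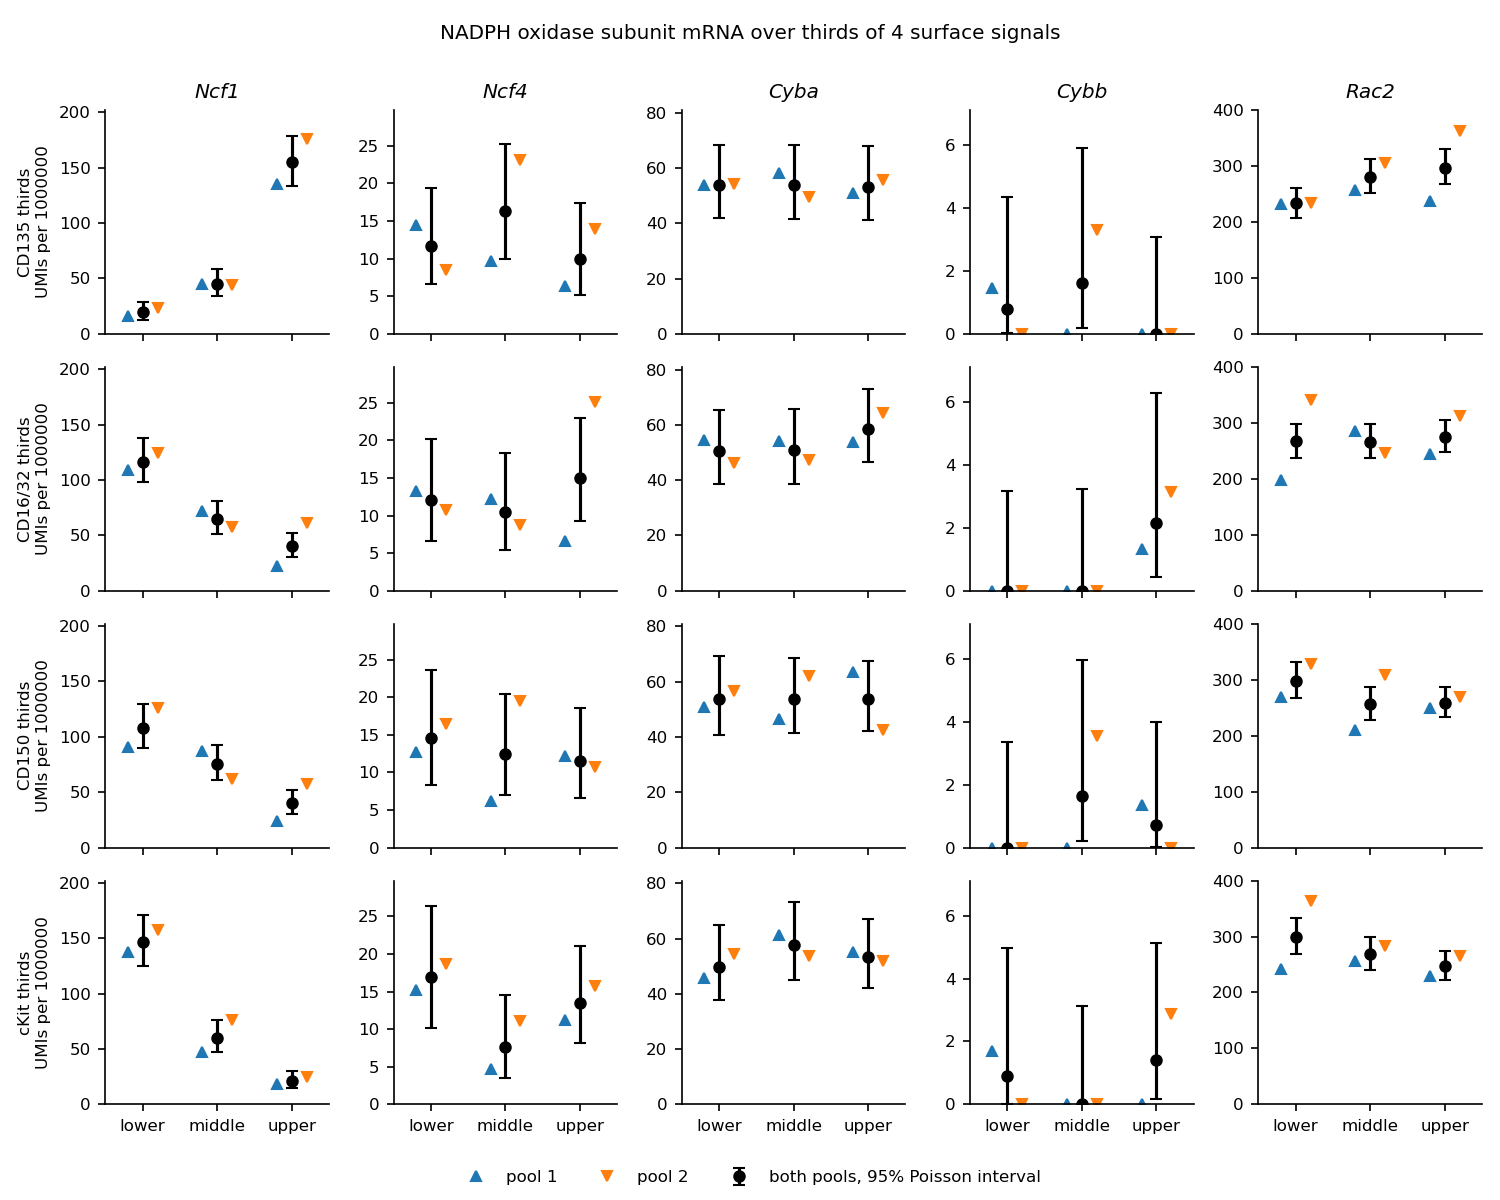
Level of the 5 members, in UMIs per 1000000 gene UMIs (linear axes that start at 0, 1 scale per gene), in the lower, middle and upper classes of the CD135, CD16/32, CD150 and cKit signals. Black points are both pools with 95% Poisson intervals, and triangles are each pool alone. Ncf1 climbs from 19.6 to 154.8 over the CD135 classes and descends over the cKit classes, Cyba stays near 54 over the CD135 classes, and Cybb is at or near 0 in every class.

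The Ncf1 step was also seen in the number of cells with the transcript. Of the CD135 lower cells 25.4% had at least 1 Ncf1 UMI (15.3 to 37.9 by the exact Clopper-Pearson method), against 35.9% (24.3 to 48.9) in the middle class and 79.7% (67.8 to 88.7) in the upper. When every cell was thinned to 12147 UMIs, with 19 shallower cells left out, the shares were 19.1%, 27.9% and 69.9%. In single cells, Ncf1 had a median of 0 CPM in the lower class with a highest value of 249, a median of 0 and a highest value of 459.7 in the middle class, and a median of 114 and a highest value of 1182 in the upper class. All classes held cells with no Ncf1 UMI, so the classes overlapped cell by cell.

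Finer classes showed where Ncf1 climbed. Over sixths of the CD135 signal, of 16 cells per pool, Ncf1 stood at 8.56, 28.9, 28.5, 62.3, 115 and 193 CPM from the lowest to the highest sixth. Sixths 2 and 3 had nearly the same level, and each sixth above them was higher than the one before. The intervals of the 5th sixth (89.3 to 145.8) and the 6th (160 to 232) did not overlap. Cyba lay between 45.9 and 62.3 CPM and Ncf4 between 8.20 and 16.8 over the same sixths, with overlapping intervals throughout. Across the 191 cells, Spearman's rho of CD135 signal and Ncf1 CPM was 0.50, against 0.02 for Cyba, -0.06 for Ncf4 and 0.10 for Rac2. These are descriptions of cells that share libraries and depth.

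**Figure D2:**
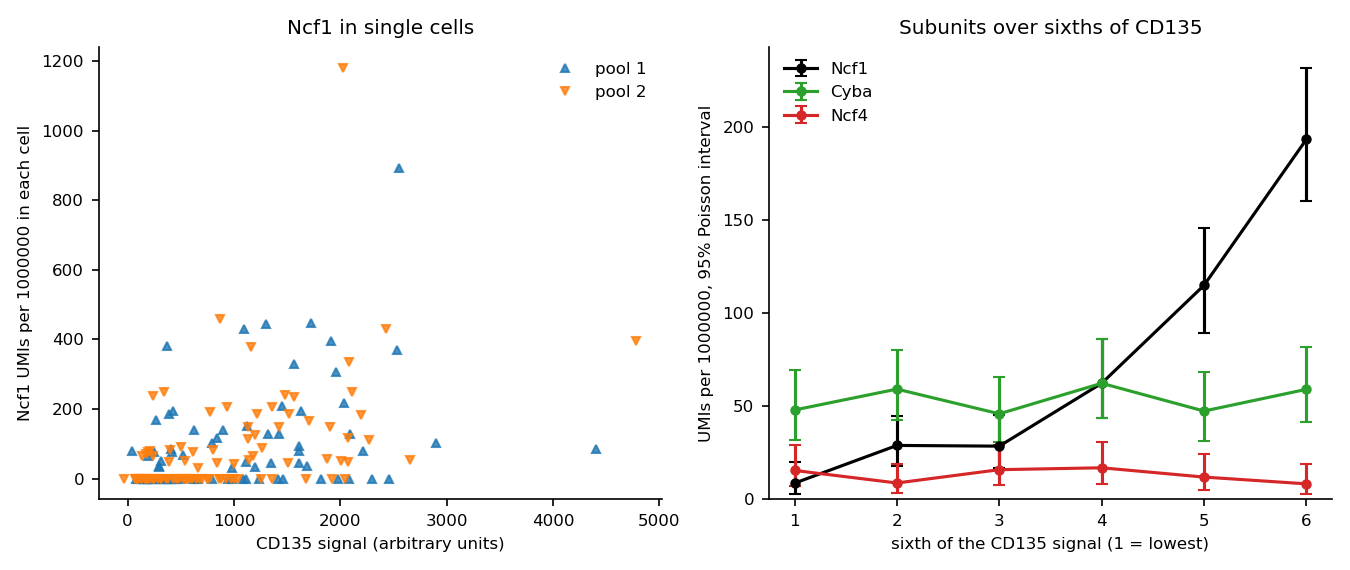
The left panel plots Ncf1 in each of the 191 cells (UMIs per 1000000 in that cell) against its CD135 signal in arbitrary units, by pool. The right panel plots Ncf1, Cyba and Ncf4 over sixths of the CD135 signal with 95% Poisson intervals. Ncf1 reaches 193 in the highest sixth, while Cyba stays between 45.9 and 62.3 in all sixths.

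The 5 cells with the most Ncf1 UMIs were all CD135 upper cells. The highest held 19 Ncf1 UMIs among 16079 gene UMIs and the next 14 among 35405. The 3 that followed held 9 each. Per gene UMIs the order differs, since the CD135 middle class held a cell at 459.7 CPM. The highest single cell carried 7.14% of all Ncf1 UMIs.

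Cyba, the partner of the catalytic subunit, was level over CD135. It stood at 54.0 CPM in the lower, 53.8 in the middle and 53.3 in the upper class, from 69, 66 and 64 UMIs. Its upper over lower log2 ratio was -0.02 (-0.53 to 0.49), an interval that leaves out a 2-fold difference in either direction. Pool 1 gave -0.07 and pool 2 gave 0.035. Cyba was found in 59.4% of the upper cells and 58.7% of the lower cells.

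Ncf4, the lipid-binding subunit, was too sparse to place within 2-fold. It had 15, 20 and 12 UMIs in the lower, middle and upper CD135 classes, or 11.7, 16.3 and 9.99 CPM. The log2 ratio of upper over lower was -0.23 (-1.46 to 0.96). It was -1.19 in pool 1 and 0.71 in pool 2, so the pools differed in sign, with 4 to 10 UMIs per class.

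Rac2 had a small step that came from 1 pool. It stood at 233 CPM (208 to 261) in the lower, 280.5 (252 to 312) in the middle and 297 (267 to 330) in the upper class. The upper over lower log2 ratio was 0.35 (0.12 to 0.58), or 1.27-fold. Pool 2 gave 0.63 (0.31 to 0.95), and pool 1 gave 0.034 (-0.30 to 0.36) with its middle class highest. Rac2 therefore missed both the same order in each pool and a 2-fold step.

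Cybb, the catalytic subunit, had 1, 2 and 0 UMIs in the lower, middle and upper CD135 classes. In the upper class a floor of 3 UMIs stands at 2.498 CPM, and the exact interval of the 0 reaches 3.07 CPM. No ratio was formed from these counts.

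By the rule that a gene climbs or descends through all 3 classes in both pools and differs 2-fold between upper and lower, Ncf1 was the 1 member of 5 called graded with CD135. The rule called 2% of 12862 genes graded upward with CD135 and 2.66% graded downward. Of the 4 members with at least 10 UMIs over the upper and lower classes, Ncf1 was past 2-fold higher and none was past 2-fold lower, against 5.88% higher and 8.42% lower of the 11998 genes measured that way. The median log2 ratio of these 4 members was 0.16, against -0.06 for all genes.

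The difference between Ncf1 and each other member was itself measured as an odds ratio of the UMI sums. On the log2 scale the Ncf1 ratio exceeded that of Cyba by 2.99 (2.18 to 3.84), that of Ncf4 by 3.195 (1.83 to 4.599) and that of Rac2 by 2.63 (1.98 to 3.34). All 3 intervals lay above 0, and within single pools they did so too, apart from Ncf4 in pool 2 at 2.15 (-0.0037 to 4.18). With 1 Cybb UMI over both classes, the interval against Cybb was open upward from -2.45, so Ncf1 could not be told apart from Cybb.

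Outside the set, Rac1 had an upper over lower log2 ratio of 0.05 (-0.24 to 0.34) over CD135, within 2-fold. Cybc1 had 0.40 (-0.22 to 1.02), which leaves a 2-fold difference possible, with 0.86 in pool 1 and -0.02 in pool 2.

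**Figure D3:**
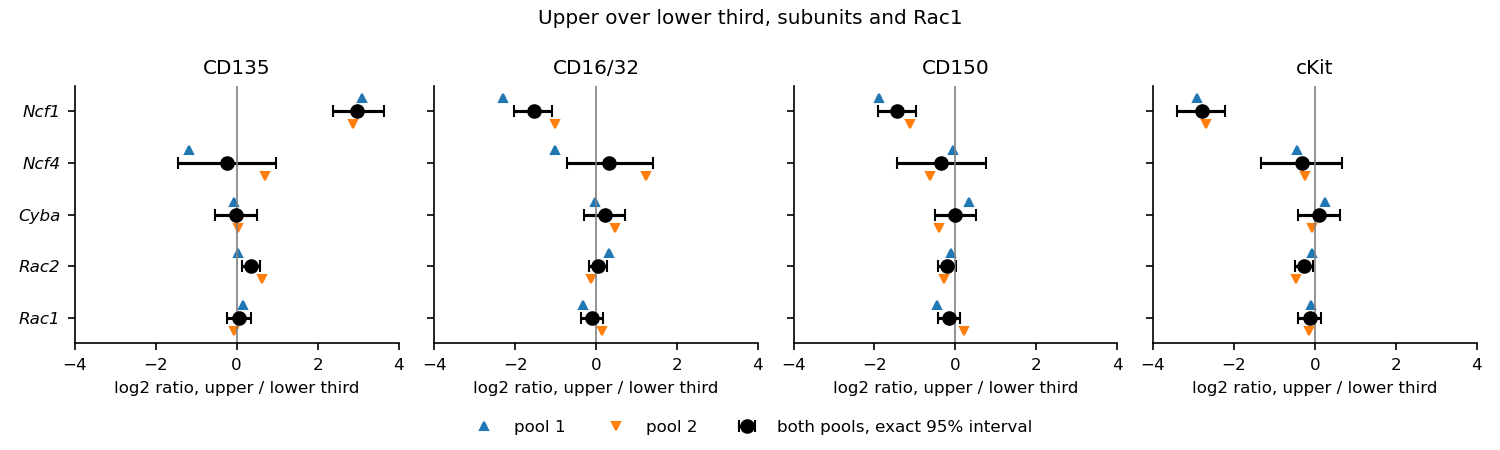
Log2 ratio of the upper over the lower class for Ncf1, Ncf4, Cyba, Rac2 and Rac1, 1 panel for each of 4 signals. Black points are both pools with exact 95% intervals, and triangles are each pool alone. Ncf1 lies at 2.98 for CD135 and at -2.78 for cKit, and Cybb is not drawn as it had 3 UMIs.

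Over the other 3 signals, Ncf1 was lower in the upper class each time. Over cKit (the stem cell factor receptor), Ncf1 stood at 147 CPM in the lower, 60.3 in the middle and 21.4 in the upper class, in 71.4%, 37.5% and 32.8% of the cells. The upper over lower log2 ratio was -2.78 (-3.39 to -2.21), with -2.91 in pool 1 and -2.69 in pool 2. Ncf1 met the grading rule downward, as did 1.74% of 12862 genes, and 1.5% did so upward. It was the 1 member past 2-fold lower and none was past 2-fold higher, against 5.12% lower and 6.66% higher of the 12033 genes measured.

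CD150, the SLAMF1 receptor, marks stem cells within LSK. Over its classes Ncf1 stood at 108, 75.2 and 40.1 CPM from lower to upper. The log2 ratio was -1.43 (-1.92 to -0.96), with the same descending order in both pools, and 1.26% of 12862 genes were graded downward and 1.63% upward. Ncf1 was the 1 member past 2-fold lower and none was past 2-fold higher, against 4.36% lower and 6.96% higher of the 12032 genes measured. The Ncf1 ratio was not told apart from that of Ncf4 (difference -1.08, -2.29 to 0.12). Cybc1 was past 2-fold lower and graded downward over CD150, at 27.2 CPM in the upper and 54.6 CPM in the lower class (log2 -1.003, -1.63 to -0.39). Its ratio was -0.48 (-1.37 to 0.40) in pool 1 and -1.53 in pool 2, and leaving out 1 cell brought it to -0.93, short of 2-fold.

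CD16/32, the Fc gamma receptors, marks granulocyte-monocyte progenitors. Ncf1 stood at 117, 64.8 and 40.1 CPM from lower to upper (log2 -1.54, -2.02 to -1.08). It was the 1 member past 2-fold lower and none was past 2-fold higher, against 4.31% lower and 5.25% higher of the 12010 genes measured. The order did not hold in pool 2, whose middle class had 57.9 CPM and whose upper class had 61.2 CPM, so Ncf1 was not called graded. No other member was either, and 1.03% of 12862 genes were graded upward and 0.98% downward. The upper CD16/32 cells were deeper, with median gene UMIs of 22565 and 19901 in pools 1 and 2, against 16067 and 17347 in the lower cells.

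Cyba stayed within 2-fold over these 3 signals too. It had upper over lower log2 ratios of 0.10 (-0.42 to 0.62) for cKit, 0.00 (-0.51 to 0.52) for CD150 and 0.21 (-0.29 to 0.72) for CD16/32. Ncf4 had -0.32 (-1.32 to 0.67), -0.34 (-1.44 to 0.75) and 0.32 (-0.72 to 1.41) for the same signals, from 32 to 38 UMIs each, too few to place it within 2-fold. For CD16/32 its pools differed in sign, at -1.01 in pool 1 and 1.23 in pool 2.

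Rac2 differed by 1.21-fold or less. Its log2 ratios were -0.28 (-0.50 to -0.06) for cKit, with -0.07 in pool 1 and -0.46 in pool 2, -0.21 (-0.43 to 0.01) for CD150 and 0.05 (-0.17 to 0.27) for CD16/32. With spike-in RNA as the denominator the cKit ratio was -0.00064.

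The signals overlap in the same cells, since CD135 and cKit had a Spearman's rho of -0.52, CD135 and CD16/32 one of -0.24 and CD135 and CD150 one of -0.22. Within each CD150 class, Ncf1 was higher in CD135 upper than in CD135 lower cells. It stood at 167 against 52.9 CPM in the CD150 lower class (log2 1.66, 0.87 to 2.54), 143 against 21.3 in the middle class (2.75, 1.55 to 4.25) and 154 against 4.33 in the upper class. The last value rests on 45 UMIs in 15 cells against 3 UMIs in 30 cells (ratio 5.15, 3.51 to 7.48).

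CD150 made no detectable difference among the CD135 upper cells. There Ncf1 stood at 154 CPM in CD150 upper and 167 CPM in CD150 lower cells, a log2 ratio of -0.12 (-0.69 to 0.43). In the CD135 lower cells it stood at 4.33 CPM in CD150 upper and 52.9 CPM in CD150 lower cells (log2 -3.61, -6.03 to -1.81), from 3 and 16 UMIs. In the CD135 middle cells the CD150 ratio was -2.04 (-3.38 to -0.87).

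Within cKit classes the CD135 step was again present where cells allowed it. It was 175.9 against 29.5 CPM in the cKit lower class (log2 2.58, 1.19 to 4.47) and 120 against 19.1 CPM in the middle class (2.65, 1.49 to 4.04). The cKit upper class held only 2 CD135 upper cells. Set the other way, the cKit ratio was -2.34 (-3.45 to -1.28) in the CD135 middle cells, at 22.1 CPM in cKit upper and 112 CPM in cKit lower cells. In the CD135 lower cells it was -0.70 (-2.38 to 1.36), at 18.1 against 29.5 CPM. The part of each signal in the Ncf1 difference cannot be told apart in the CD135 upper cells, where 43 of 64 cells were also cKit lower.

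Within CD135 classes, CD16/32 separated Ncf1 beyond counting error in the upper class alone. Among the CD135 upper cells Ncf1 stood at 82.9 CPM in CD16/32 upper and 196 CPM in CD16/32 lower cells (log2 -1.24, -1.93 to -0.61). In the CD135 middle cells it stood at 33.2 CPM in CD16/32 upper and 60.9 CPM in CD16/32 lower cells (log2 -0.88, -1.90 to 0.18). Among the CD135 lower cells it stood at 21.6 CPM in CD16/32 upper and 9.42 CPM in CD16/32 lower cells, with a ratio of 1.20 (-0.76 to 3.70) from 10 and 3 UMIs, which reverses the sign but spans 0. The CD135 step was present in each CD16/32 class, with log2 ratios of 4.38 (2.80 to 6.68, from 118 and 3 UMIs) in the lower, 2.58 (1.63 to 3.64) in the middle and 1.94 (0.83 to 3.16) in the upper class.

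**Figure D4:**
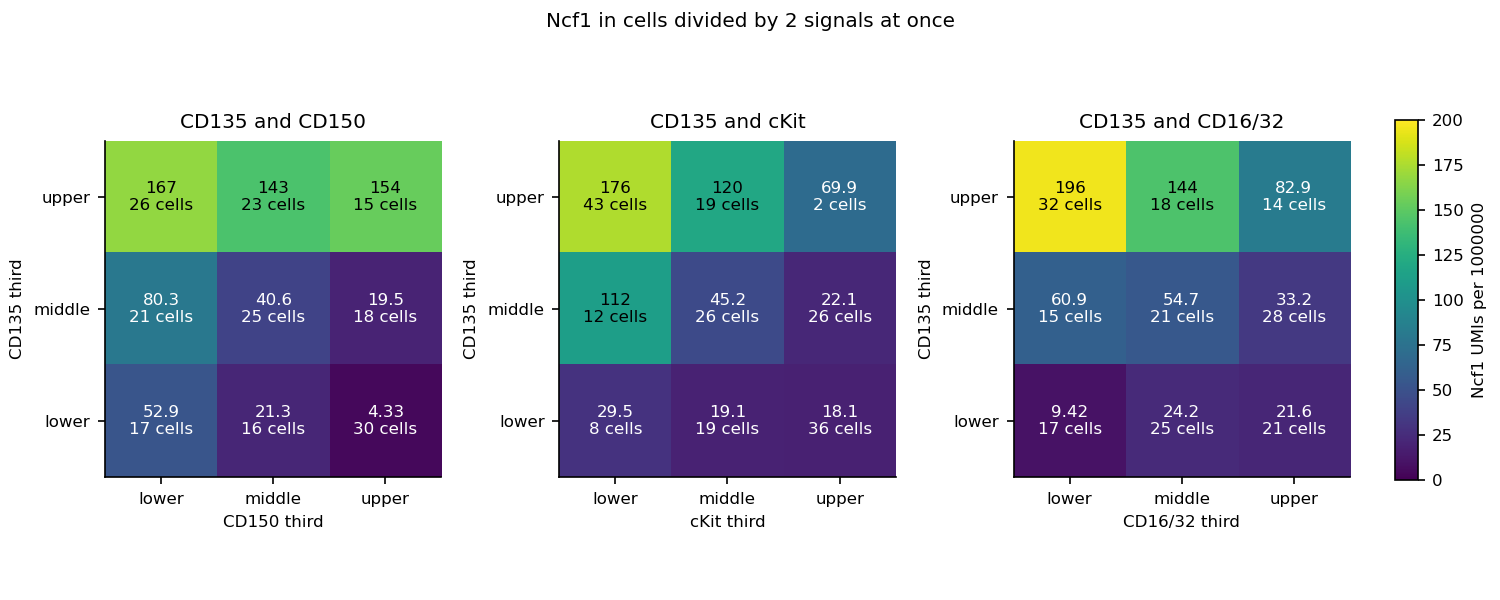
Ncf1 level (colour, UMIs per 1000000 gene UMIs) in cells divided at once by CD135 (rows) and by CD150, cKit or CD16/32 (columns), with the level and number of cells in each box. The CD135 upper row lies between 143 and 167 over CD150, while the CD135 lower row lies between 4.33 and 52.9. The box of 2 cells carries little weight.

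Were the 5 members expressed together in any class? All 5 were found together in 1 of 191 cells, or 0.52% (exact Clopper-Pearson interval 0.013 to 2.88). That cell was in the middle CD135, upper CD16/32, middle CD150 and upper cKit class, and it was deep, at 36838 gene UMIs. After thinning to 12147 UMIs, 0.209 such cells would be expected. In the classes without it the count was 0, as in the 64 CD135 upper cells, where a floor of 3 cells stands at 4.69% and the exact interval reaches 5.60%. These limits are on cells with a UMI of each member, not on cells that express them.

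The cells with Cybb set this limit. The first, in pool 1 with 19134 gene UMIs, had 1 Cybb, 1 Cyba, 1 Ncf4 and 5 Rac2 UMIs and no Ncf1. It also held 78 UMIs of Mpo (myeloperoxidase, a granule enzyme of neutrophil precursors), 10 of Prtn3 and 7 of Fcgr3, with a CD16/32 signal of 2481. Elane had 3 UMIs there, Lyz2 had 1, and Irf8 and Csf1r had none. The second, in pool 2, was the cell in which all 5 members were found, with 2 Cybb, 3 Ncf1, 3 Ncf4, 4 Cyba and 9 Rac2 UMIs. It held 20 Mpo, 6 Irf8, 5 Lyz2 and 3 Prtn3 UMIs, 1 each of Fcgr3 and Csf1r, and none of Elane. Of all 191 cells, 79.1% had a Prtn3 UMI, 75.9% Lyz2, 62.3% Mpo and 26.7% Irf8. A UMI of Prtn3, Lyz2 or Mpo therefore does not set the 2 cells apart. Both cells were in the CD16/32 upper class, which therefore had 2.15 Cybb CPM (0.44 to 6.27). Both were also in the lower class of the Sca-1 signal, which held all 3 Cybb UMIs. S100a8 and S100a9 were at 0 in both. Over all 191 cells S100a8 had 0 UMIs and S100a9 had 5, so these zeros do not set the 2 cells apart. The lower and middle CD16/32 classes had 0 Cybb UMIs, with exact upper limits of 3.16 and 3.23 CPM and floors of 2.57 and 2.63 CPM.

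Without Cybb, partial sets were more frequent. Ncf1, Ncf4, Cyba and Rac2 were found together in 13 of 191 cells (6.81%, 3.67 to 11.4), 1 of them the cell with all 5 members. By CD135 class, from lower to upper, 3, 3 and 7 cells held these 4 members. Ncf1 and Cyba were found together in 54 cells, with 8, 13 and 33 cells from the lower to the upper class. Since Cyba was level over CD135 and Ncf1 was not, this count moved with Ncf1. Counts of cells with several members also move with depth: after thinning, 4.57 cells with the 4 members would be expected. By CD135 class, from lower to upper, these were 0.93, 2.04 and 1.60 cells, so the upper class was no longer highest.

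Most cells held a part of the set. No member was found in 4 cells, 1 in 34, 2 in 84, 3 in 55, 4 in 13 and all 5 in 1 cell. Among the CD135 upper cells 33 of 64 had 3 or more members, against 17 of 63 CD135 lower cells. Among the cKit upper cells 19 of 64 did, against 33 of 63 cKit lower cells. These counts were not thinned. They include Ncf1, which was found in 79.7% of the CD135 upper and 25.4% of the CD135 lower cells.

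**Figure D5:**
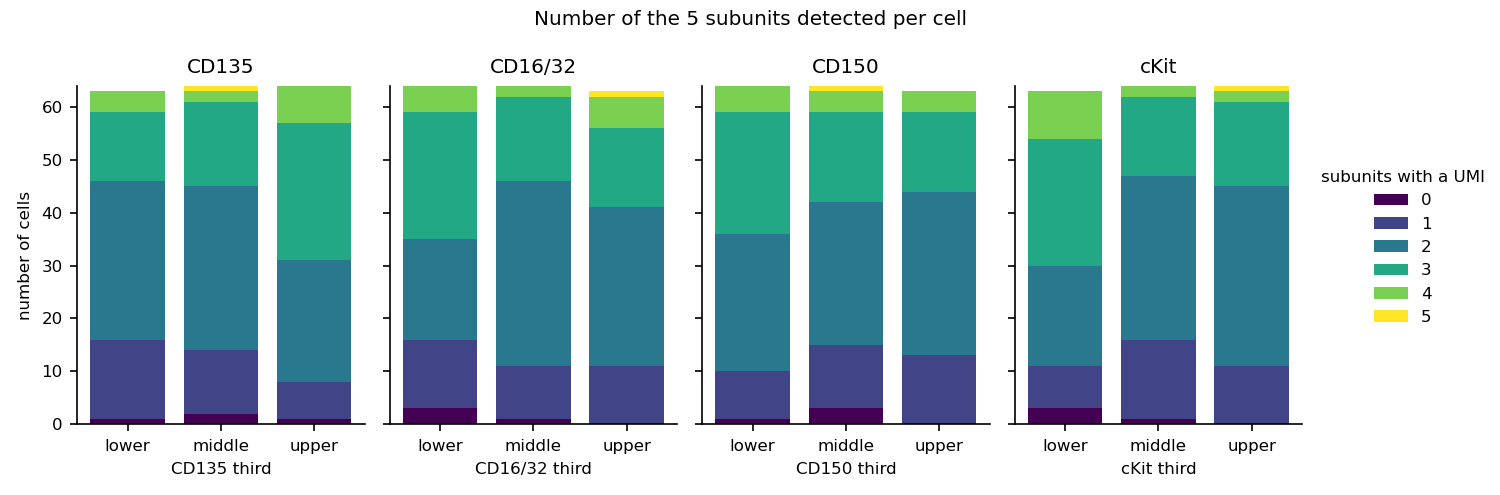
Number of cells (stacked bars from 0) with 0 to 5 of the members detected, in the lower, middle and upper classes of 4 signals. The single cell with 5 members sits in the CD135 middle, CD16/32 upper, CD150 middle and cKit upper bars.

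Other oxidases were hardly seen. Nox1, a homologue of Cybb, had 7 UMIs in 6 cells and Nox3 had 1 UMI. Noxo1, a homologue of Ncf1, had 6 UMIs. Rac3, Nox4, Duox1, Duox2, Duoxa1 and Duoxa2 were not analysed here.

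Genes of assembly and activation include Rac exchange factors, kinases that act on Ncf1, and integrin and formyl peptide receptors. The formyl peptide receptors were not among those measured, as Fpr2 had 1 UMI and Fpr1 was not analysed here. Over CD135, 0 of 22 listed genes measured were past 2-fold higher and 0 past 2-fold lower. Of all genes measured, 5.88% were higher and 8.42% lower. The median log2 ratio of the 22 was 0.23, against -0.06 over all genes. Vav1, a Rac exchange factor, had 0.23 (-0.30 to 0.76) and Rap1a, a small GTPase found with the membrane core, 0.13 (-0.18 to 0.45). Over cKit, Vav2 was the 1 of 22 past 2-fold lower and 0 were past 2-fold higher. Of all genes measured over cKit, 5.12% were lower and 6.66% higher. Vav2 stood at 9.26 CPM in the cKit upper and 19.6 CPM in the lower class (log2 -1.08, -2.19 to -0.03). Its ratio was -2.004 in pool 1 and -0.645, short of 2-fold, in pool 2. Over CD16/32, Itgb2 was the 1 of 22 past 2-fold lower and Hvcn1 the 1 past 2-fold higher. Of all genes measured, 4.31% were lower and 5.25% higher. Itgb2, the integrin beta chain of leukocytes, stood at 20.04 CPM in the upper and 44.6 CPM in the lower class (log2 -1.15, -1.87 to -0.46). Hvcn1, the proton channel that balances the charge moved by the oxidase, had 10 UMIs in the CD16/32 upper and 2 in the lower class, with an interval that spans 0 (-0.17 to 5.29).

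Of 22 measured genes that handle superoxide and peroxide, 1 was past 2-fold higher with CD135 and 4 past 2-fold lower, against 5.88% higher and 8.42% lower of all genes, with a median log2 ratio of -0.24, against the same -0.06. Gclm, a subunit of the enzyme that starts glutathione synthesis, stood at 53.3 CPM in the CD135 upper and 160 CPM in the lower class (-1.58, -2.01 to -1.17), with -1.60 in pool 1 and -1.57 in pool 2. Gsr, glutathione reductase, had -1.04 (-1.99 to -0.15), which was -0.75 without its top cell. Nqo1, a quinone reductase, had 4 and 16 UMIs in the upper and lower class, with 22.7% of its UMIs in 1 cell. Mpo had -1.63 (-1.91 to -1.35), but -2.16 in pool 1 and 0.08 in pool 2. Hmox1, heme oxygenase, was the 1 past 2-fold higher, from 11 and 3 UMIs.

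Gclm was also higher in the upper class of cKit (1.40, 1.00 to 1.82) and of CD150 (1.03, 0.65 to 1.42), the reverse of Ncf1 for each signal. Its CD150 ratio was 1.52 in pool 1 and 0.58 in pool 2. Without its top cell it was 0.94, short of 2-fold. Of the 22 superoxide and peroxide genes measured, 2 were past 2-fold higher over cKit and 3 over CD150, against 6.66% and 6.96% of all genes. In each case 0 were past 2-fold lower, against 5.12% and 4.36% of all genes. Mpo was higher in the CD16/32 upper class, at 457 against 90.03 CPM in the lower class (2.34, 2.04 to 2.65). It was the 1 of 22 past 2-fold higher and Nqo1 the 1 past 2-fold lower, against 5.25% higher and 4.31% lower of all genes. Genes that supply NADPH (the pentose phosphate pathway, isocitrate dehydrogenases and malic enzymes) showed no CD135 step past 2-fold among 12 measured, with a median of -0.15, against the same 5.88% and 8.42% of all genes. In the same list Idh1, a cytosolic isocitrate dehydrogenase, was past 2-fold higher over CD16/32 (1.28, 0.25 to 2.42). It was 1 of 12 measured, and 0 were past 2-fold lower, against 5.25% higher and 4.31% lower of all genes.

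Among 5 measured transcription factors known at genes of this oxidase, 2 were past 2-fold higher with CD135 and 0 past 2-fold lower, against 5.88% higher and 8.42% lower of all genes. Irf8, a factor of dendritic cell and monocyte fate, stood at 89.9 CPM in the upper and 9.39 CPM in the lower class (log2 3.26, 2.40 to 4.26). Its ratio was 2.35 in pool 1 and 4.18 in pool 2, and its top cell held 13.5% of its UMIs. Hoxa9, a homeobox factor of progenitors, had 1.16 (0.82 to 1.51) and similar ratios of 1.12 and 1.21 in both pools. Spi1, which encodes PU.1, had 0.26 (-0.25 to 0.78). Irf8 was lower in the upper class of cKit (-2.21) and of CD150 (-2.06), although its CD150 ratio was -0.01 in pool 1 and -3.17 in pool 2.

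Markers of other cell types moved with CD135 beside Ncf1. The 18 lymphoid priming genes had a summed level of 1336, 2289 and 4443 CPM from the lower to the upper class. The 10 dendritic cell genes had 406, 809.7 and 1583 CPM, with 13.2% of their UMIs in 1 cell, and share Flt3 with the lymphoid list. Flt3 encodes CD135, the signal that set these classes, so it is no independent marker of them. The 14 granulocyte-monocyte progenitor genes had 1790, 1586 and 1262 CPM, and the 12 erythroid genes had 1779, 765 and 569 CPM. The granulocyte-monocyte progenitor genes did not all fall. Of 12 measured, 5 were past 2-fold lower and 2 past 2-fold higher (Csf1r 2.04 and Gfi1 1.16). Of all genes measured, 8.42% were lower and 5.88% higher. Mpo, in this list, had -2.16 in pool 1 and 0.08 in pool 2. Over cKit, from lower to upper, the lymphoid genes had 4153, 2584 and 1527 CPM and the dendritic cell genes 1546, 824 and 503 CPM. The part of these cell types in the Ncf1 difference was not tested.

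Markers of mature phagocytes were fewer. The 7 mature neutrophil genes in the counts had a summed 25.1, 48.1 and 43.3 CPM over the CD135 classes, from 143 UMIs, with S100a8 at 0. Of the 2 of these measured, Itgam was past 2-fold higher in the CD135 upper class (log2 1.34). The 9 mature monocyte and macrophage genes in the counts had 156, 203 and 199.8 CPM. Among the 6 of these measured, 4 were past 2-fold higher in the CD135 upper class (Csf1r, Ccr2, Cd68 and Ctss) and 1 past 2-fold lower (Ms4a6c), against 5.88% and 8.42% of all genes. Csf1r is also in the granulocyte-monocyte progenitor list. The part of these mature phagocyte genes in the Ncf1 difference was not tested either.

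Which genes followed the same pattern as each member? Likeness was measured as Pearson's r of log2(CPM + 10) over 24 profiles (4 signals, 3 classes, 2 pools), which share cells. For Ncf1 the most alike of 7414 genes were Tcf4 and Ighm (0.96 each), Il12a (0.96), Notch1 (0.96) and Arpp21 (0.94). Tcf4 encodes a factor of plasmacytoid dendritic and B cells, Ighm the IgM heavy chain, Il12a an interleukin-12 subunit and Notch1 the receptor of T lineage commitment. Cell by cell their r with Ncf1 was lower, from 0.29 for Arpp21 to 0.55 for Ighm.

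The other members had different neighbours. For Rac2 they were Thap3 (0.94), Il6ra (0.89), a chain of the interleukin-6 receptor, and Icam1 (0.87), an adhesion molecule. For Ncf4 they were St13 (0.79), Pdia6 (0.75) and Tmem123 (0.75), and for Cyba Cyp20a1 (0.74), Ufc1 (0.73) and Emsy (0.66). For Cybb, Ccdc77 (0.78), Atxn3 (0.76) and Traf3 (0.75) came first, on 3 UMIs. In single cells the r with these neighbours was far lower. It lay from 0.01 to 0.05 for Rac2 and from -0.03 to 0.19 for Ncf4. For Cyba it lay from 0.01 to 0.09, and for Cybb from -0.08 to 0.14. Among the members themselves, r with Ncf1 was 0.43 for Rac2, 0.13 for Ncf4, -0.24 for Cyba and -0.32 for Cybb.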

How the data were processed

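The authors deposited unnormalised UMI counts for each gene in each cell, made, per the labels, with an adapted CEL-seq2 protocol that primes on the poly(A) tail, with UMIs of 6 bases. Per the submitters' processing notes the build was GRCh38, a human build, although the table carries mouse Ensembl IDs. The sources used here give no aligner, counting tool or use of strand. Symbols and coordinates came from GENCODE M21 (GRCm38) by ID, with 20530 of 20764 genes matched, and start regions from RefSeq (GRCm38.p6). The 71 spike-ins stayed out of the totals.

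A cell needed at least 20% of the median depth of its pool, and 191 of 192 had it. Cells were sorted singly, and doublets were not called. No 2 columns of counts were identical. Classes were ranked within each pool before this filter. Sums over a class have exact Poisson intervals and shares exact Clopper-Pearson intervals (scipy 1.17.1, pandas 2.3.3). Ratios have exact conditional binomial intervals, and these alone were tested on simulated data, drawn with Poisson counting error only. Intervals and floors (3 UMIs) cover counting error only. Thinning used the expected share of each cell at 12147 UMIs, the 10th percentile of depth. A listed gene counted as measured from 10 UMIs over both classes, and was named if past 2-fold. Likeness used genes with at least 50 UMIs and no cell above 20% of them, leaving out predicted, pseudogene and ribosomal symbols, and named 5 genes for Ncf1 and 3 for each other member. Alternatives changed the cells, the denominator, the class size and the depth.

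The members, the gene lists and the tests were chosen with earlier results of these data known. No animal is named, so spread between animals could not be measured. Some values are not reported here.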

Additional observations from a re-analysis of the deposited data

Results flagged for a closer look

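The CD11b signal, which enters none of the comparisons above, also separated Ncf1. Ncf1 stood at 106 CPM in the lower, 62.3 CPM in the middle and 51.6 CPM in the upper CD11b class, and the upper over lower log2 ratio was -1.04 (-1.49 to -0.61), from 71 and 121 UMIs. The step came from pool 2, at -1.76 (-2.44 to -1.12). The lower class of that pool had 84 Ncf1 UMIs, 19 of them in 1 cell, and the part of that cell in the step was not tested. Pool 1 gave -0.16 (-0.82 to 0.51). Past 2-fold lower over CD11b were 4.8% of 11988 genes.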

How the results depend on the processing

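Of 251 alternative values, 215 stayed within the counting interval of the reported value or called the same share, 35 moved and 1 reversed. The Ncf1 ratio over CD135 lay between 1.66 and 5.15 in all 15 alternatives, with 1.66 within the lower CD150 class and 5.15 within the upper. The values within the middle and upper CD150 classes were chosen after seeing the data. Over CD16/32, Ncf1 had -0.99 between the 48 highest and 48 lowest cells per pool, -2.29 in pool 1, -1.03 in pool 2 and 1.20, reversed, within the CD135 lower cells. Over CD150 it had -0.74 in that split and -3.61 within the CD135 lower cells, and over cKit -0.70 within the CD135 lower cells. Rac2 over CD135 had 0.034 in pool 1, 0.63 in pool 2, 0.017 within the lower and 0.70 within the upper CD150 class. Rac2 over CD150 had 0.092 with spike-ins as denominator and -0.50 within the CD135 lower cells, over cKit -0.00064 with spike-ins and over CD16/32 0.31 in pool 1. Cyba over CD135 had 0.53 within the middle CD150 class, and Ncf4 over CD16/32 had -1.01 in pool 1. The cause of these moves was not tested.

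Shares of cells depend on depth and threshold by construction. With at least 2 UMIs asked for, they were 29.8% for Ncf1, 3.14% for Ncf4, 26.2% for Cyba and 89.0% for Rac2. With at least 1 UMI asked for after thinning, in the 172 cells deep enough, they were 38.6%, 14.7% and 44.3% for the first 3. All 5 members were expected in 0.209 cells after thinning, and Cyba with Cybb was seen in 2. With at least 50 UMIs, 2.83% of genes were past 2-fold higher over CD135 and 3.24% lower. At this depth a cell with a few Cybb molecules can show no UMI. No paired analysis was possible because the classes hold different cells of 1 sample.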

Other observations

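In the 14 cells with a CD127 signal above 2000, Ncf1 stood at 125 CPM, against 67.03 CPM in the other 177 cells (log2 0.90, 0.37 to 1.40, from 38 and 228 UMIs). Of the 38 UMIs, 14 came from 1 cell and 9 from another, both CD135 upper. The CD127 and CD135 signals had a Spearman's rho of 0.25, and the part of CD135 in this difference was not tested. Over classes of the whole CD127 signal the Ncf1 ratio of upper over lower was 0.52 (0.07 to 0.99). Over Sca-1 the Ncf1 ratio was -1.04 (-1.86 to -0.27) in pool 1 and 0.46 (-0.15 to 1.07) in pool 2. Cyba had ratios between -0.10 and 0.25 over CD127, Sca-1, CD11b, forward scatter and side scatter, with intervals that span 0.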
